A study of Mus musculus with 8 samples.

Results

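Chromosome 16 of the mouse was followed gene by gene, along its length, in 8 RNA libraries of Ba/F3 cells. Of the 1181 genes that the table of read counts lists there, 386 had a mean of 1 or more CPM (read counts scaled to library size with trimmed-mean factors) over the 8 libraries and make up the set described here, out of 14010 genes at that level in the whole genome and 53465 genes in the table. The set was split at 10 Mb from the start of the chromosome, which leaves 40 genes in the first 10 Mb and 346 beyond. The genes were selected on position and on this mean CPM. The split, the chromosome and the measure were chosen with earlier results of these data known, so what follows on the shift itself is a description without a test. Just inside the level limit lay 1700056N10Rik (mean of 1.02 CPM) and Pla1a (1.02 CPM), and just outside it Tvp23a (0.986 CPM) and Gm7572 (0.968 CPM).

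Ba/F3 is an immortalised mouse pro-B cell line of C3H background that is kept growing with interleukin-3. The libraries fall into 3 of parental cells, which carry wild-type U2AF35 (replicates 1 to 3), and 5 of cells transformed with U2AF35(S34F) (replicates 4 to 8). U2AF35 recognises the end of the intron as part of the U2AF splicing factor, and S34F is a hotspot mutation of it. Messenger RNA was sequenced after polyA selection, and no label states that libraries of a group come from separate cultures, so the p-values reflect only how these samples vary, and that variation may be technical. How the S34F form was introduced was not stated in the labels. Library totals lay between 36122062 (transformed 7) and 50305573 (parental 1) counts, and genes of the set held between 2.30% and 2.81% of a library's counts. Of 12 pro-B markers, 2 (Cd79a and Cd79b) reached 1 CPM, and Rag1, Kit and Il7r had 0 counts in all 8 libraries. The summed pro-B markers spanned 63.7 to 76.0 CPM in parental and 54.6 to 77.3 CPM in transformed libraries. T cell markers summed to at most 1.29 CPM, whereas the mast cell and basophil list spanned 57.1 to 139 CPM in parental and 10.8 to 227 CPM in transformed libraries. Erythroid and megakaryocyte markers summed to 251 to 335 CPM in parental and 108 to 150 CPM in transformed libraries. Most of that came from Itga2b and the rest largely from Klf1, so the sums do not stand for the whole list. Granulocyte and macrophage markers summed to 19.8 to 35.7 and 12.2 to 39.1 CPM, and stroma markers, nearly all of it from Pecam1, to 155 to 172 and 177 to 228 CPM. Their part in the results below was not tested. In these bulk samples fewer cells of a kind and less RNA per cell cannot be told apart.

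Mouse chromosome 16 joins several stretches whose human counterparts lie on different chromosomes. Its stretch from 10 to 20 Mb holds the genes of the human 22q11 region, named for the DiGeorge deletion. Its far end holds much of human chromosome 21, including Sod1, Runx1 and Dyrk1a. Its first 10 Mb hold the acetyltransferase Crebbp, the deubiquitinase Usp7 and the mitochondrial chaperone Trap1. Neighbouring genes share a stretch of DNA, and many of them, though not all, have their own promoters and unrelated functions. No measurement of DNA was analysed here.

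Usp7 is the most abundant gene on the near side and Nubp1, which helps assemble iron-sulphur clusters, is the first protein-coding gene of the set on the far side. Their promoters, from RefSeq on GRCm38.p6 (250 bases before to 50 after the start), are printed to show what lies at the start of a gene on either side. Usp7 is at chr16:8738293-8738592 on the minus strand and Nubp1 at chr16:10411688-10411987 on the plus strand, and capitals mark matches to the motifs searched.
Usp7: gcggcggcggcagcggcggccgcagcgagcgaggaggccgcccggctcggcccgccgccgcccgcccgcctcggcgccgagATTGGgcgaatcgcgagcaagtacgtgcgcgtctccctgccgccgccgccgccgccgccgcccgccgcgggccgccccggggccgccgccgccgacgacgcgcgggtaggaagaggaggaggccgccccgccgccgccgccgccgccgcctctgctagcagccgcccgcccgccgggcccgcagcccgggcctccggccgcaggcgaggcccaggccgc
Nubp1: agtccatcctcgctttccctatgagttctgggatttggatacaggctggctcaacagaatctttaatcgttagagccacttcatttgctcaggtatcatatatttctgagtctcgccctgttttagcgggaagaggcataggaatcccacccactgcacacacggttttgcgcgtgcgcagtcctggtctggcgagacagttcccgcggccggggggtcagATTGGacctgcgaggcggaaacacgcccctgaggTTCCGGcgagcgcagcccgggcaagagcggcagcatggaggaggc
The letters searched on both strands were CCGGAA (the core of ETS factor sites), CCAAT (the CCAAT box), TATAAA (the TATA box) and CACGTG (an E-box). Usp7, with 86.0% G and C, held the CCAAT box alone, and Nubp1, with 57.7%, held the CCAAT box and the ETS core. Among 32 matched promoters of the first 10 Mb and 254 beyond it, the ETS core was in 34.4% and 35.0%, against 18.0% of the 20367 promoters of all genes. The CCAAT box was in 59.4% and 35.8%, against 38.5%, the TATA box in 6.25% and 7.48%, against 13.3%, and the E-box in 25% and 10.6%, against 7.74%. The background here includes genes that are silent in these cells, so these shares describe the set and single out nothing.

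Beyond 10 Mb, most genes were lower in parental 1 and in every transformed library than in parental 2 and 3. The measure is the log2 CPM of a library minus the mean log2 CPM of parental 2 and parental 3, and its median over the 346 genes was -0.30 in parental 1, -0.27 in transformed 4, -0.32 in transformed 5, -0.30 in transformed 6, -0.31 in transformed 7 and -0.27 in transformed 8. These medians correspond to 81.1%, 82.8%, 80.1%, 81.4%, 80.7% and 83.0% of the reference level. Parental 2 and 3, the reference itself, sat at -0.04 and 0.04. The 5 transformed medians averaged -0.29 ± 0.02 (SD, n = 5), and the 3 parental ones -0.10 ± 0.18 (SD, n = 3), with parental 1 far below the others. Parental 2 and 3 mirror each other around 0 by construction, so this parental mean comes from parental 1 alone and its SD is not a spread of 3 free values. Over the 13624 genes on other chromosomes the median lay between -0.08 (transformed 7) and 0.02 (transformed 8). Below 0 were 301 of the 346 genes in parental 1 and 280, 266, 279, 247 and 259 in transformed 4 to 8.

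The first 10 Mb went another way. There the median over 40 genes was 0.17 in parental 1, -0.26 in transformed 4, 0.43 in transformed 5, 0.37 in transformed 6, 0.20 in transformed 7 and 0.39 in transformed 8, that is 112%, 83.7%, 135%, 129%, 115% and 131% of the reference. Above 0 were 32 of the 40 genes in parental 1, 34 in transformed 5, 31 in transformed 6, 26 in transformed 7 and 32 in transformed 8, but 5 in transformed 4. Transformed 4 was thus low on both sides of 10 Mb, at nearly the same level, while parental 1 and transformed 5 to 8 were high on the near side and low on the far side. Over the 5 transformed libraries the mean of the medians was 0.23 ± 0.28 (SD, n = 5).

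**Figure D1:**
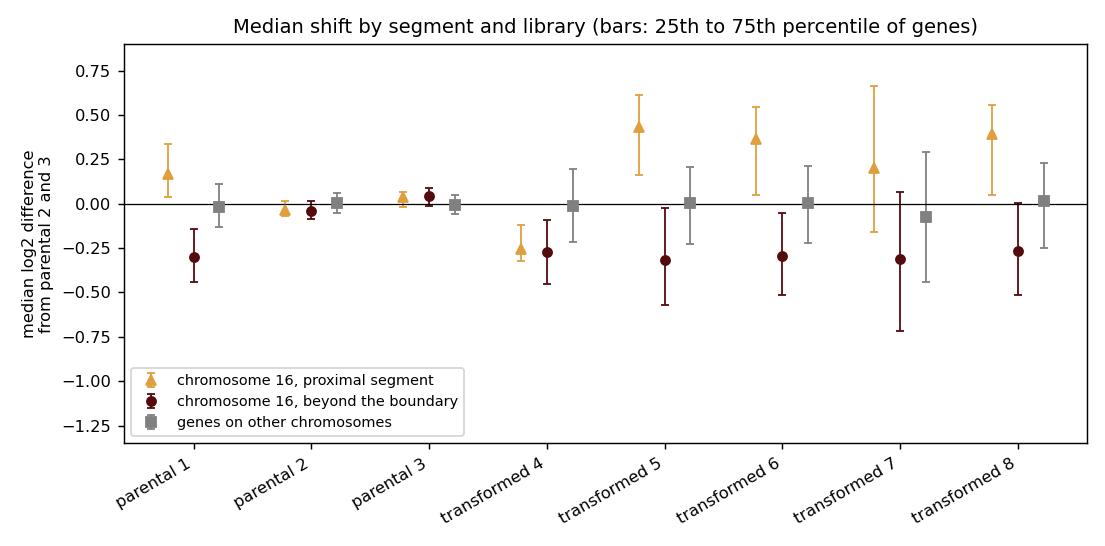
Median log2 difference from parental 2 and 3 (vertical axis) in each library for the 40 genes of the first 10 Mb (triangles), the 346 genes beyond (circles) and genes on other chromosomes (squares), with bars from the 25th to the 75th percentile of genes. Circles lie between -0.32 and -0.27 in parental 1 and all 5 transformed libraries, and the triangle of transformed 4 (-0.26) lies with its circle.

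The differences were also taken within each sequencing lane, from the same libraries. By their labels, lane 6 held 2 parental libraries (1 and 3) and 2 transformed ones (5 and 8), and lane 7 the rest. Within lane 6, against parental 3, the far side was at -0.34 in parental 1, -0.33 in transformed 5 and -0.31 in transformed 8, and the near side at 0.16, 0.38 and 0.29. Within lane 7, against parental 2, the far side was at -0.24 in transformed 4, -0.27 in transformed 6 and -0.32 in transformed 7, and the near side at -0.19, 0.35 and 0.23. All of these signs matched those against both reference libraries. Parental 2 and 3 had medians of only -0.04 and 0.04 on each side, so changing the reference left little room for another sign. Of the parental libraries lane 7 held parental 2 alone, and the part of lane was not tested.

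The gap between the near and the far side was also measured on 16 other chromosomes with at least 20 genes in their own first 10 Mb. The median of the first 10 Mb minus that of the rest was 0.47 in parental 1, against a range of -0.09 to 0.09 over those chromosomes. It was 0.75 in transformed 5 (others -0.11 to 0.12), 0.66 in transformed 6 (-0.14 to 0.15), 0.51 in transformed 7 (-0.26 to 0.20) and 0.66 in transformed 8 (-0.17 to 0.18). In transformed 4 it was 0.02, inside the range of -0.11 to 0.24. Taken whole, chromosome 16 had the lowest median of 20 chromosomes in parental 1 (-0.28, the next lowest being chromosome 8 at -0.07). In the transformed libraries chromosome 19 was lower, at -0.31 to -0.49, against -0.22 to -0.29 for chromosome 16, and in transformed 7 and 8 so, by less than 0.01, was chromosome 2. These are descriptions, since chromosome and boundary were picked for this pattern.

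**Figure D2:**
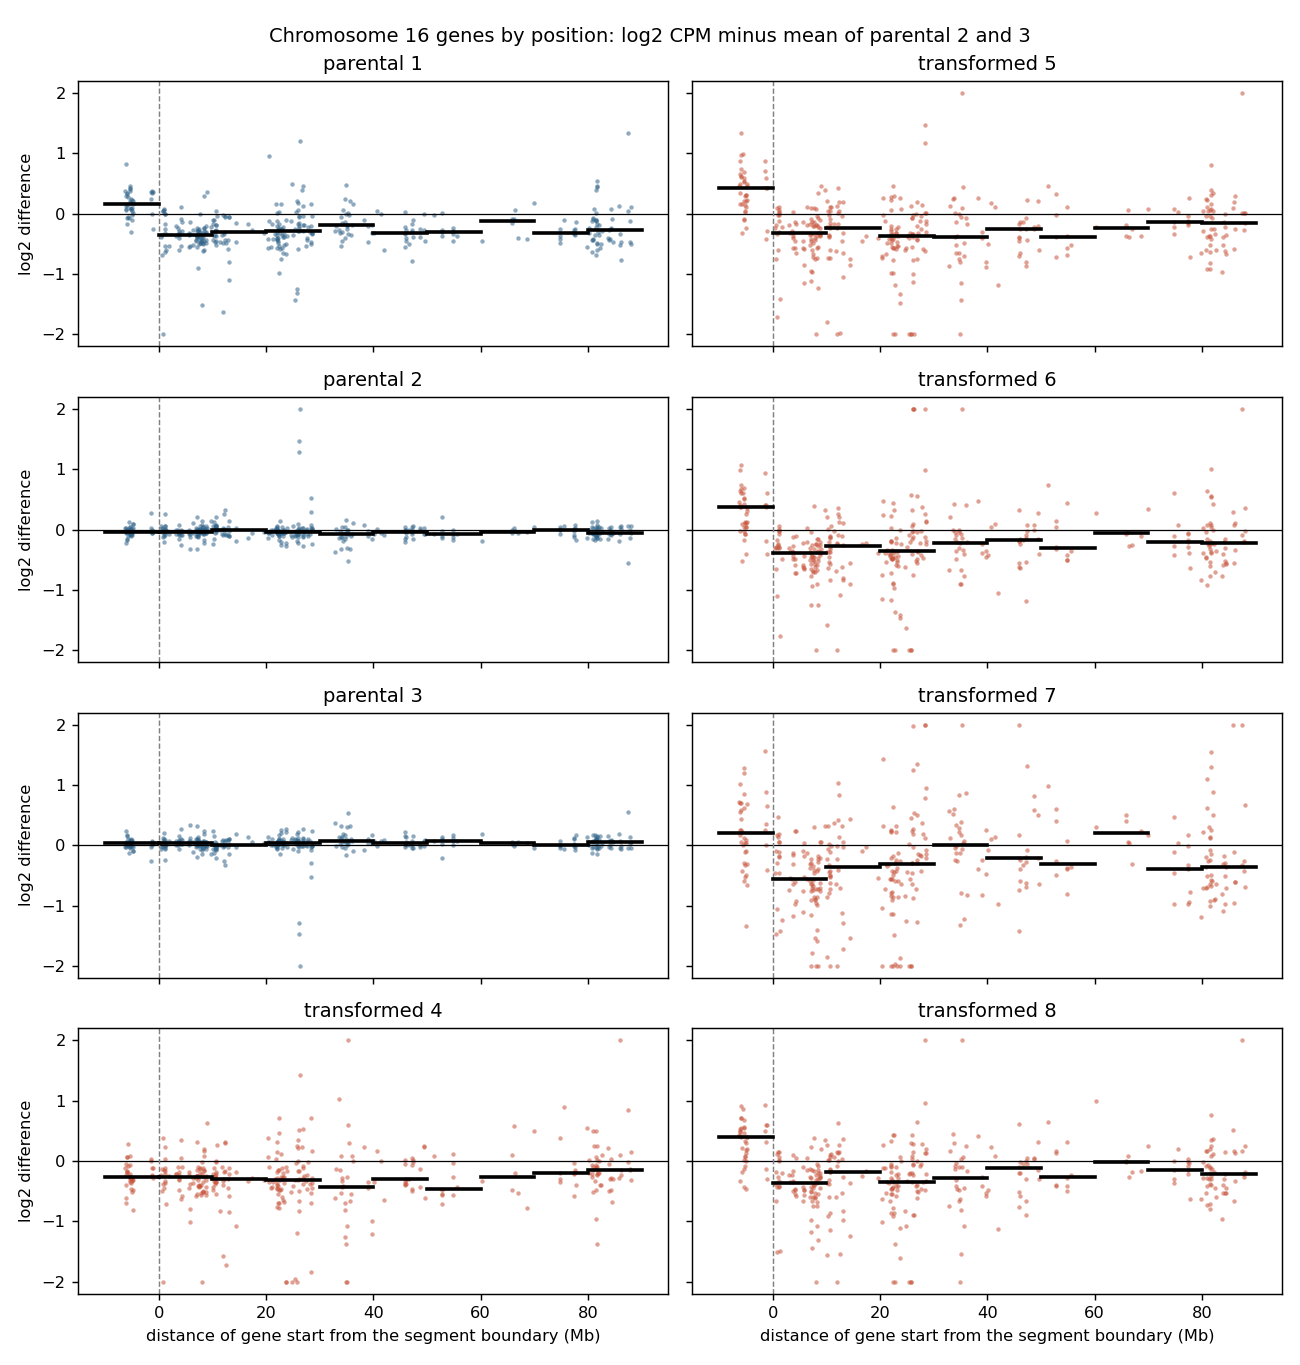
Log2 difference from parental 2 and 3 (vertical axis, ended at -2 and 2) of each of the 386 genes against the distance of its start from the 10 Mb boundary in Mb (horizontal axis), 1 panel a library, with medians of 10 Mb windows as black lines. Window medians beyond the boundary lie below 0 throughout in parental 1 and transformed 4, 5, 6 and 8, and those of transformed 7 are at 0.01 from 40 to 50 Mb and at 0.20 from 70 to 80 Mb (8 genes).

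Along the far side the shift was not flat. From 10 to 20 Mb (83 genes) the medians were -0.35 in parental 1 and -0.26, -0.33, -0.39, -0.56 and -0.37 in transformed 4 to 8. From 30 to 40 Mb (87 genes) they were -0.29 in parental 1 and -0.32, -0.36, -0.36, -0.31 and -0.34. From 40 to 50 Mb (30 genes) transformed 4 and 5 stayed at -0.42 and -0.38 while transformed 7 was at 0.01, with 15 of 30 genes below 0. In the last window, from 90 Mb (51 genes), parental 1 and transformed 7 were at -0.27 and -0.36, and transformed 4 and 5 at -0.14 and -0.16. The windows from 60 to 90 Mb held 10, 8 and 13 genes, too few to be read singly.

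A single place of change was then sought along the ordered genes. Such a search returns a gap between neighbouring genes in every library, the reference ones included. It was fitted to the differences described above, so the place is a description. The position that best divides the ordered genes into 2 levels (smallest sum of absolute deviations, 10 or more genes a side, a measure added after the values were seen) fell at the same place in parental 1 and transformed 5, 6, 7 and 8. It lay after 1810013L24Rik, which starts at 8830100, and before Gm10247, a processed pseudogene that starts at 8922060. The levels before and after were 0.18 and -0.30 in parental 1, 0.43 and -0.32 in transformed 5, 0.37 and -0.30 in transformed 6, 0.23 and -0.31 in transformed 7, and 0.39 and -0.27 in transformed 8. The near edge of the second level thus rests on 1 pseudogene, a class whose counts are uncertain. With the 324 protein-coding genes alone the gap was wider in parental 1 and transformed 5, 6 and 8. The division then lay between 1810013L24Rik and Nubp1 (start 10411948). In transformed 7 it then moved to lie between Dnaja3 and Nmral1, at 4639989 and 4710059, with levels of 0.59 and -0.33 for the 17 genes before and the rest after. In transformed 4 the best division was at Hspa13 and Samsn1, which start at 75745431 and 75858793, and lowered the summed deviation by 1.71%, against 13% in parental 1 and 8.39%, 7.06%, 2.94% and 6.74% in transformed 5 to 8. The 2 reference libraries gave 1.53%, and transformed 7 was nearer to that than to parental 1.

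The genes nearest to 10 Mb on either side are given singly. Their values went into placing the division above, so they describe it and are no separate evidence. 1810013L24Rik (ENSMUSG00000022507) had 51.6, 39.5 and 41.3 CPM in parental 1, 2 and 3 and 33.1, 54.5, 61.3, 63.5 and 61.5 CPM in transformed 4 to 8. Nubp1 (ENSMUSG00000022503), the next protein-coding gene of the set, had 23.8, 32.4 and 29.7 CPM in parental 1 to 3 and 26.6, 26.2, 25.2, 22.5 and 23.8 CPM in transformed 4 to 8. Against parental 2 and 3, parental 1 and transformed 5 to 8 were thus above for the first gene and below for the second, and transformed 4 was below for both. Gm10247 and Dexi, on either side of 10 Mb, were below the reference in all 6 of these libraries, by 0.12 (transformed 4) to 0.41 (transformed 7) and by 0.50 (transformed 4) to 1.47 (transformed 7) on the log2 scale.

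**Figure D3:**
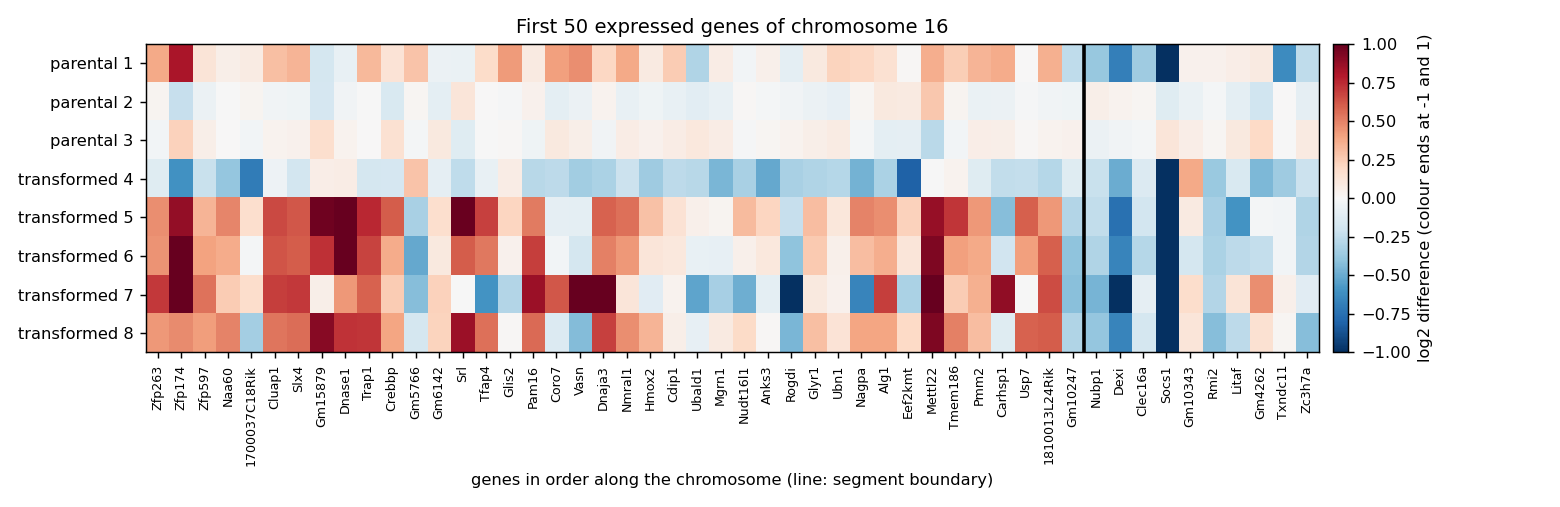
Log2 difference from parental 2 and 3 (colour, ended at -1 and 1) of the first 50 genes of the set in chromosomal order (columns) in the 8 libraries (rows), with a black line at 10 Mb. Parental 1 and transformed 5 to 8 are mostly red up to 1810013L24Rik and mostly blue after it, while transformed 4 is mostly blue throughout.

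Genes of the near side have varied roles. Trap1, the mitochondrial member of the HSP90 family (chromosome 16, starting at 4039971), had 213, 169 and 170 CPM in parental 1, 2 and 3. In transformed 4 it had 150 CPM, and in transformed 5 to 8 it had 285, 271, 256 and 279 CPM. All 4 of the latter lay above every parental library and transformed 4 lay below them, so the groups overlapped (log2 fold change 0.44, SE 0.20, edgeR quasi-likelihood test with Benjamini-Hochberg adjustment over all genes, adjusted p = 0.238). Dnaja3, a mitochondrial co-chaperone, had 90.9, 80.8 and 77.0 CPM in the parental libraries, 63.4 CPM in transformed 4 and 118, 112, 181 and 127 CPM in transformed 5 to 8. Pam16, a part of the motor that pulls proteins into mitochondria, had 13.1, 12.7 and 12 CPM, then 10.2 CPM in transformed 4 and 17.7, 19.9, 22.4 and 18.3 CPM. These genes share the order of libraries, with transformed 4 lowest and transformed 5 to 8 highest. The order is not particular to mitochondrial genes, since Slx4 and Cluap1 of the near side, given next, had it too.

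Usp7, which removes ubiquitin from the p53 regulator Mdm2, was level in the parental libraries (248, 246 and 250 CPM). It had 211 CPM in transformed 4, 375, 329 and 374 CPM in transformed 5, 6 and 8, and 248 CPM in transformed 7, so that transformed 7 stood with the parental cells. Crebbp, a histone acetyltransferase, had 51.8, 42.5 and 52.2 CPM in parental cells and 42, 71.8, 60.8, 56.2 and 62.1 CPM in transformed 4 to 8. Slx4, a scaffold for DNA repair nucleases, had 71.1, 54.4 and 57.9 CPM, then 49.4, 86.4, 85.6, 91.4 and 82.5 CPM. Cluap1, a ciliary transport protein, had 9.56, 7.57 and 7.97 CPM, then 7.48, 12.3, 12.1, 12.6 and 11.3 CPM. Both put transformed 4 below the parental libraries and the other transformed libraries above them. Mettl22, a methyltransferase, had the next largest log2 fold change of the near side after Dnase1 (0.81, SE 0.31, edgeR adjusted p = 0.175), with 35.3 CPM in transformed 7 and 9.89 to 15.3 CPM in parental cells. Dnase1, a secreted nuclease, had 4.69 to 5.08 CPM in parental and 5.21 to 12.5 CPM in transformed libraries. It was the 1 gene of the 40 (2.5%) that was above in all 5 without overlap, against 8.02% of all genes of this level.

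Rogdi had 35.4, 37.0 and 38.9 CPM in parental cells and 30.2, 32.3, 28.7, 15.1 and 27.6 CPM in transformed 4 to 8. It was the 1 gene of the 40 (2.5%) that was below in all 5 without overlap, against 11.0% of all genes of this level. Ubn1, a subunit of a histone chaperone complex, had 167, 134 and 151 CPM and then 117, 154, 147, 147 and 157 CPM, within the parental range save for transformed 4. Glyr1, a nucleosome-binding protein, had 256, 229 and 249 CPM, then 194 CPM in transformed 4 and 255 to 297 CPM in the others. In all, 14 of the 40 genes (35.0%) were above both reference libraries in parental 1 and transformed 5 to 8 and below both in transformed 4, a pattern that 1.94% of all genes of this level had. This pattern was written to match the near-side medians above and was counted in the same genes, so nothing is read from the excess. The list written for this stretch had 22 genes at this level. Below 0 were 22 of 22 in transformed 4 and 3, 5, 9 and 4 of 22 in transformed 5 to 8. EdgeR called 0 of the 22, against 3.01% of all genes tested.

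Tested between groups, chromosome 16 gave 18 genes lower and 2 higher in transformed cells among the 386, all of them beyond 10 Mb and all 386 tested. That is 4.66% and 0.518% of the set, against 2.10% lower and 0.908% higher, or 3.01% either way, among the 17733 genes tested. Since the shift was part of how the set was chosen, nothing is read from this excess. The median log2 fold change was -0.18 for the 346 genes beyond 10 Mb and 0.17 for the 40 before it, against 0.02 over all genes tested. None of the 40 near-side genes passed in edgeR, where 5 (12.5%) had an unadjusted p under 0.05, against 22.2% of all genes tested, and 1 passed in DESeq2. Beyond 10 Mb DESeq2 gave 49 lower and 6 higher, where it called 5.72% of all genes lower and 4.54% higher. Calls moved with the libraries. Leaving out transformed 4 gave 66 lower beyond 10 Mb (9.26% of all genes were lower in that fit) and 11 higher before it (6.25%), and leaving out transformed 7 gave 39 (4.76%) and 0 (2.87%). Without parental 1, which shares the shift, 2 were lower (0.354% of all genes) and 0 higher (0.0609%), and without parental 2 or 3, without transformed 6 or 8, or with lane as a covariate, 0 were lower, and 1 was lower without transformed 5, fits in which at most 0.445% of all genes were lower.

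Without a model, 54 of the 346 far-side genes lay lower in all 5 transformed libraries than in all 3 parental ones, 15.6% against 11.0% of all genes, and 5 lay higher (8.02% of all genes). Against parental 2 and 3 alone, 160 genes lay lower (16% of all genes) and 11 higher (11.5%). In 150 of the 346, or 43.4%, parental 1 and the 5 transformed libraries all lay below both parental 2 and 3, against 9.92% of all genes, and in 6 all lay above (6.62%). The reference libraries are shared by all these comparisons, and the set was picked for this shift, so nothing is read from the excess.

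**Figure D4:**
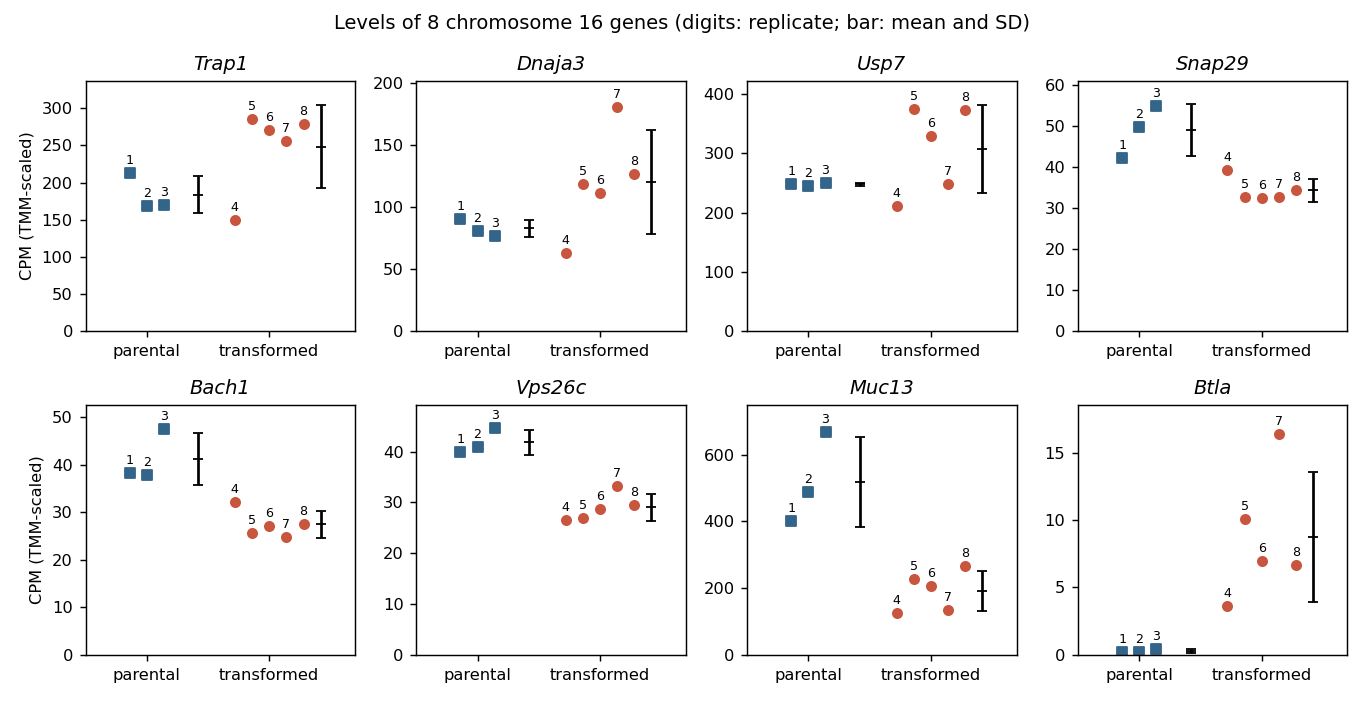
TMM-scaled CPM (vertical axes, linear, from 0) of 8 chromosome 16 genes by group, each point marked by its replicate number, squares for parental and circles for transformed cells, beside bars for mean ± SD. Trap1 and Dnaja3 in transformed 4 lie below all parental libraries, and Snap29, Bach1, Vps26c, Muc13 and Btla separate the groups without overlap.

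Among the called genes beyond 10 Mb, 12 of 18 fell by less than 2-fold. Bach1, a heme-sensitive repressor of antioxidant genes (chromosome 16, starting at 87698945), had 38.3, 37.7 and 47.6 CPM in parental 1 to 3 and 32.1, 25.7, 27.1, 24.8 and 27.5 CPM in transformed 4 to 8. It fell by 0.58 on the log2 scale (SE 0.12, edgeR adjusted p = 0.0390). Vps26c, a subunit of the retriever complex that recycles membrane proteins, fell from 41.8 ± 2.47 (SD, n = 3) to 29.0 ± 2.63 CPM (SD, n = 5), with edgeR adjusted p = 0.0390 as well. Snap29, a SNARE that helps autophagosomes fuse with lysosomes, had 42.4, 49.9 and 54.9 CPM and then 39.3, 32.8, 32.5, 32.7 and 34.6 CPM (edgeR adjusted p = 0.0482). In these genes parental 1 or 2 was the parental library nearest to the transformed ones. Others of this kind were the E3 ubiquitin ligase Cblb (log2 fold change -0.80), the dynein light chain Tctex1d2 (-0.75), the centrosomal proteins Fopnl (-0.60), Cep97 (-0.57) and Ccdc14 (-0.63), the nucleotide-sugar transporter family member Slc35a5 (-0.81), the processed pseudogene Gm20056 (-0.66), the protease Tmprss7 (-0.97) and the noncoding RNA Lppos (-0.97). Tctex1d2 was also called without parental 1 (edgeR adjusted p = 0.0446), as was Tmem50b (edgeR adjusted p = 0.0403), which missed the threshold with all 8 libraries (0.0590).

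The other 6 fell by more than 2-fold. Muc13, a membrane mucin, had 402, 488 and 667 CPM in parental cells and 126, 228, 206, 133 and 265 CPM in transformed 4 to 8 (log2 fold change -1.43, SE 0.26, edgeR adjusted p = 0.0308). Gm15657, an antisense transcript that overlaps the start of Muc13, had a log2 fold change of -1.56, and reads of overlapping antisense pairs cannot be told apart where the strand setting is not given. Mylk, the myosin light chain kinase, had 85.8, 55.8 and 66.7 CPM in parental and 13.3 to 41.1 CPM in transformed libraries. Rtn4r, the Nogo receptor, had 65, 203 and 151 counts in parental 1 to 3 and 28, 3, 4, 1 and 1 counts in transformed 4 to 8 (edgeR adjusted p = 0.0369). Dirc2, a lysosomal transporter, had 118, 241 and 287 counts and then 49, 1, 11, 7 and 5 counts (edgeR adjusted p = 0.0419). In both, parental 1 was the lowest parental library and transformed 4 the highest transformed one. Both reached the limit of 1 CPM only through the parental group, so a difference was built into their being in the set. In all 13 genes reached it through 1 group alone, of which 3 were called (Rtn4r, Dirc2 and Btla), which leaves 16 called lower and 1 higher. Snx29 had a log2 fold change of -1.15.

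The 2 genes called higher lie within the lowered stretch. Btla, an inhibitory receptor of lymphocytes (starting at 45224315), had 12, 10 and 21 counts in parental 1, 2 and 3 and 181, 503, 315, 591 and 313 counts in transformed 4 to 8, or 0.201 to 0.464 CPM against 3.64 to 16.4 CPM. Btla reached the limit of 1 CPM only through the transformed group, so a difference was built into its being in the set. Its log2 fold change was 4.88 (SE 0.60, edgeR adjusted p = 0.0105), and the adjusted p was 0.0518 without parental 1. Slc51a, a subunit of a steroid and bile acid transporter, rose from 7.80 ± 0.56 (SD, n = 3) to 11.8 ± 1.10 CPM (SD, n = 5), with edgeR adjusted p = 0.0386. Calls named in this and the previous paragraphs that the naming rule did not select (Rtn4r, Dirc2, Snx29, Tmprss7, Lppos, Cep97, Tmem50b and Btla), and the examples Crebbp, Slx4, Cluap1, Dnase1, Mcm4, Sod1, Ets2 and Runx1, were chosen after their values were seen.

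The human 22q11 counterparts, 23 genes at this level, all between 10 and 20 Mb, lay low in every library but parental 2 and 3. Their medians were -0.41 in parental 1, -0.40 in transformed 4, -0.35 in transformed 5, -0.47 in transformed 6, -0.73 in transformed 7 and -0.37 in transformed 8, and 23 of 23 lay below 0 in transformed 5, 6 and 8. In edgeR 2 passed as lower, Snap29 and Rtn4r, against 2.10% of all genes tested and 5.20% of those beyond 10 Mb. Rtn4r is in the set only through the parental group. Negative log2 fold changes were found in 22 of 23 (median -0.27, against 0.02 over all genes). Slc25a1, the mitochondrial citrate carrier, had 150, 193 and 204 CPM in parental cells and 138, 117, 121, 68.1 and 131 CPM in transformed 4 to 8, groups that did not overlap, and it missed the threshold (edgeR adjusted p = 0.106). Lztr1, which directs RAS proteins to degradation, had 85.5, 98.7 and 104 CPM and then 76.8, 61.5, 62.5, 80.4 and 60.6 CPM (edgeR adjusted p = 0.0815). Tango2 had 16.4, 19.5 and 21.6 CPM and then 14.4, 12.3, 11.0, 7.72 and 9.68 CPM (edgeR adjusted p = 0.0574). The adaptor Crkl and the nuclear protein Ess2 overlapped between groups, since parental 1 lay among or next to the transformed libraries in both.

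The counterparts of human chromosome 21 lie at the far end and had smaller differences in the transformed libraries. Their 51 genes had medians of -0.30 in parental 1, -0.20 in transformed 4, -0.23 in transformed 5, -0.21 in transformed 6, -0.32 in transformed 7 and -0.21 in transformed 8. In edgeR 2 passed as lower (Bach1 and Vps26c) and 0 as higher, against 2.10% lower and 0.908% higher among all genes tested and 5.20% lower beyond 10 Mb. Sod1, the cytosolic superoxide dismutase, had 226, 270 and 294 CPM in parental 1 to 3 and 246, 232, 216, 172 and 232 CPM in transformed 4 to 8, so that parental 1 lay within the transformed range. Dyrk1a, a kinase of the Down syndrome region, had 61.2, 81.3 and 88.6 CPM and then 69.4, 66.3, 57.7, 51.9 and 62.3 CPM. Runx1, a transcription factor of blood formation, had 77.6, 92.2 and 97.5 CPM and then 102, 62.7, 74.4, 61.0 and 62.9 CPM, with transformed 4 highest of all. Son, a splicing cofactor, had 443, 600 and 638 CPM and then 532, 520, 472, 418 and 503 CPM. Ets2, another transcription factor, had 36.9 to 47.8 CPM in parental libraries and 175 CPM in transformed 7, where the other transformed ones had 34.4 to 59.8 CPM. Synj1 and Pigp, a lipid phosphatase and a GPI-anchor enzyme, did not overlap between groups and had edgeR adjusted p of 0.0518 and 0.0529.

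By function, genes of DNA replication and repair lay low in most libraries. Of 16 genes, 13 lay below 0 in parental 1 and 16, 15, 15, 13 and 15 in transformed 4 to 8. The median log2 fold change was -0.35, with 0 passing in edgeR, against 3.01% of all genes tested. At an unadjusted edgeR p under 0.05, 8 were lower, against 11.6% of all genes tested and 29.5% of the genes beyond 10 Mb. All but 1 of the 16 lie beyond 10 Mb, so the list was not set apart from the far side. Mcm4, a subunit of the replicative helicase, had 297, 359 and 399 CPM in parental cells and 334, 277, 251, 175 and 280 CPM in transformed 4 to 8. Prkdc, the catalytic subunit of DNA-PK that lies next to it, had 79.4, 97.2 and 102 CPM and then 84.6, 67.4, 64.4, 59.0 and 62.5 CPM. Both were lower in parental 1 than in the other parental libraries. Rmi2, a partner of the BLM helicase, differed from these in parental 1, which at 28.3 CPM was level with parental 2 and 3 (27.1 and 28.0 CPM), while the transformed libraries had 20.5 to 22.5 CPM (edgeR adjusted p = 0.0597). Donson and Mis18a did not overlap between groups either (edgeR adjusted p of 0.103 and 0.0566).

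Genes of translation and protein turnover differed among libraries. In parental 1 all 23 lay below 0 (median -0.36), in transformed 4 22 (-0.21), and in transformed 8 14 (-0.05). EdgeR called 0 of the 23, against 3.01% of all genes tested, and nothing is read from 0 in so short a list. Eif4a2, a helicase of translation initiation, had 199, 320 and 372 CPM in parental 1 to 3 and 232, 221, 192, 141 and 194 CPM in transformed 4 to 8, so that parental 1 stood among the transformed libraries. Eif4g1, the scaffold of the same complex, had 626, 882 and 840 CPM and then 743, 893, 795, 608 and 903 CPM, with parental 1 and transformed 7 low. The ribosomal protein gene Rpl35a had 277, 361 and 366 CPM and then 316, 291, 280, 269 and 274 CPM. Abcf3 had 55.4, 67.7 and 66.7 CPM and then 48.9 to 53.5 CPM, without overlap (edgeR adjusted p = 0.120). The RNase Parn had 42.6 to 50.3 CPM in parental libraries and then 34.1 to 47.0 CPM. The 18 genes of mitochondrial proteins had medians of -0.32 in parental 1 and -0.25, -0.23, -0.14, -0.22 and -0.14 in transformed 4 to 8. Among them 0 were called, against the same 3.01% of all genes tested. Opa1, the fusion protein of the inner membrane, had 102, 125 and 131 CPM and then 102, 96.3, 97.4, 87.8 and 105 CPM.

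Signalling and transcription genes, 25 in number, had medians of -0.32 in parental 1 and -0.29, -0.33, -0.34, -0.41 and -0.27 in transformed 4 to 8. In edgeR 1 was called lower (Bach1), against 2.10% of all genes tested. Socs1, which blocks JAK kinases and is induced by cytokines, showed the lowest difference in parental 1 among genes of at least 10 CPM. It had 8.11 CPM in parental 1, 31.0 and 36.6 CPM in parental 2 and 3, and 6.92, 10.3, 15.6, 16.1 and 11.8 CPM in transformed 4 to 8, and it missed the threshold (log2 fold change -1.04, SE 0.45, edgeR adjusted p = 0.215). Wrb, the next of those genes after Eif4a2, had 8.70, 15.5 and 14.2 CPM in parental cells and 9.74 to 18.2 CPM in transformed ones. Mylk, Cd200r3 and Itsn1 had the highest differences in parental 1 among them. Cd200r3, a receptor of basophils and mast cells, had 53.4, 42.6 and 34.2 CPM in parental cells and 4.08 to 20.3 CPM in transformed ones (edgeR adjusted p = 0.0567).

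The immune surface and B lineage list had 10 of its 20 genes at this level. Of these, 1 was called higher (Btla) and 2 lower (Muc13 and Cblb), against 0.908% higher and 2.10% lower among all genes tested. Btla is in the set only through the transformed group. Vpreb1 and Igll1, the surrogate light chain genes of pro-B cells, lie on this chromosome and stayed outside the set, at no more than 0.15 CPM and 0.04 CPM in any library. Hcls1, an actin regulator of blood cells, had 185, 208 and 243 CPM and then 160 to 189 CPM. The transferrin receptor Tfrc had 423, 586 and 481 CPM in parental cells and 381, 648, 666, 391 and 720 CPM in transformed 4 to 8, and so did not share the shift in transformed 5, 6 and 8. Atp13a3, a polyamine transporter and the most abundant gene of the set, had 771, 944 and 1134 CPM and then 1084, 639, 612, 506 and 672 CPM, with transformed 4 at the parental level. The IL-1 receptor partner Il1rap had 25.9, 26.5 and 32 CPM and then 21.3 to 27.3 CPM. Interferon receptors and targets, 9 genes, had medians from -0.33 in transformed 5 to 0.14 in transformed 7. Of the 9, 0 were called, against 3.01% of all genes tested. Il10rb, a subunit of the IL-10 receptor, had 21.3, 21.6 and 24.8 CPM and then 14.8 to 19.4 CPM without overlap (edgeR adjusted p = 0.0962). Parp14, a poly(ADP-ribose) polymerase family member, overlapped between groups, with 40.1 to 49.7 CPM in parental and 46.4 to 63.5 CPM in transformed libraries, and its neighbour Dtx3l had 40.2 to 47.5 and 34.8 to 43.7 CPM.

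The shift was seen at each level of expression, and processed pseudogenes were near 0. Beyond 10 Mb, medians over genes with a low mean CPM (1.02 to 17, 116 genes), a middle one (17.1 to 53.2, 115 genes) and a high one (53.2 to 795, 115 genes) were -0.24, -0.33 and -0.32 in parental 1, -0.34, -0.32 and -0.30 in transformed 5, and -0.29, -0.32 and -0.31 in transformed 7. Transformed 4 had -0.16, -0.34 and -0.26. The spread among genes narrowed with level, from an interquartile range of 0.90 in the low class to 0.29 in the high class in transformed 5. Classes of transcript GC content, of the same sizes, gave medians from -0.21 to -0.46 in the transformed libraries, the latter in the GC-rich class of transformed 7. The 288 protein-coding genes had medians of -0.33 in parental 1 and -0.30, -0.34, -0.34, -0.37 and -0.30 in transformed 4 to 8. The 39 processed pseudogenes had -0.02 in parental 1 and 0.03, 0.08, -0.08, -0.05 and 0.12. Processed pseudogenes are copies of mature transcripts of genes that often lie elsewhere, and reads of a copy and its source can be assigned to either, so their counts are uncertain. Gm9843, an abundant pseudogene of the far side, had 664, 623 and 645 CPM in parental cells and 484 to 649 CPM in transformed ones.

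**Figure D5:**
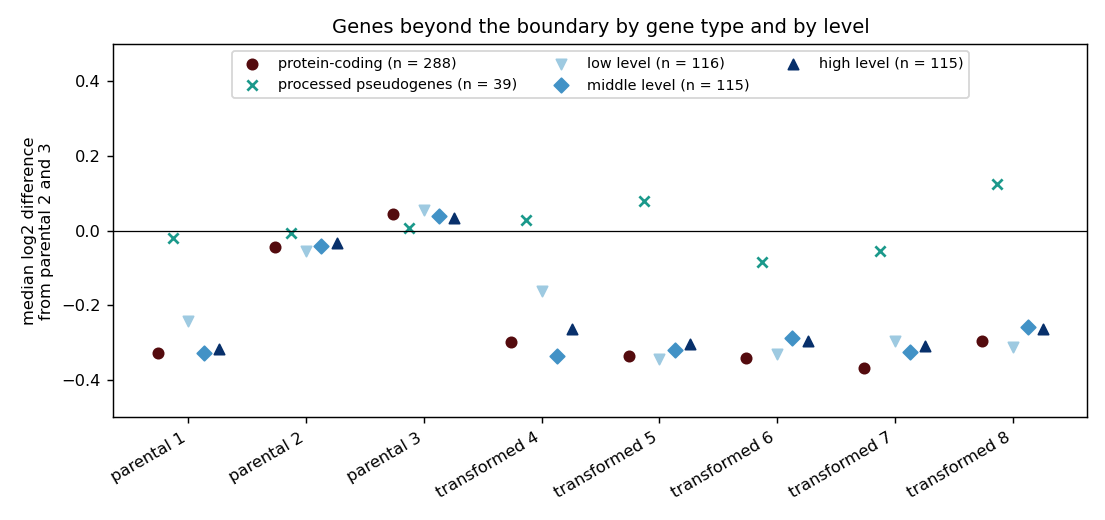
Median log2 difference from parental 2 and 3 (vertical axis) over genes beyond 10 Mb in each library, for protein-coding genes, processed pseudogenes and 3 classes of mean CPM. Protein-coding genes lie between -0.37 and -0.30 in parental 1 and all 5 transformed libraries, and processed pseudogenes between -0.08 and 0.12.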

How the data were processed

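PolyA RNA libraries of 3 parental and 5 transformed Ba/F3 samples were read from the table of raw counts per gene that the authors deposited, which was made with STAR 2.5.3a and featureCounts 1.5.3 on mm10 and GRCm38.p5, per the submitters' processing notes. The strand setting was not given in the sources used here, nor how reads with several matches were handled or which annotation release was counted. Gene positions and symbols came from GENCODE M21 (GRCm38). For 191 of 53465 gene IDs, with 0.0499% of counts, no match was found, and 0 columns were left unused. Groups and lanes were taken from the labels.

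Counts were scaled with TMM factors in edgeR 4.0.16 (R 4.3.3, limma 3.58.1). CPM carry no added count, and log2 CPM carry a prior count of 2. The log2 CPM of each library minus the mean of parental 2 and 3 was summarised by medians, with no test. Groups were compared by edgeR's quasi-likelihood test, 2-sided, over 17733 genes that passed its expression filter, with Benjamini-Hochberg adjustment and a threshold of 0.05. DESeq2 1.42.0, other scalings, filters, references, boundaries and omitted libraries served as alternatives, and the procedure was tested on simulated data. Total counts of 36122062 to 50305573 limit the precision of low genes. The genes, lists and boundary were chosen with earlier results of these data known. Genes named were the called ones with the largest changes at an average log2 CPM of 3 or more, up to 4 of smallest p in each list at 10 CPM or more, those at the level limit and the boundary, the extremes of parental 1 and the most abundant, and others are said to be chosen after their values were seen.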

Additional observations from a re-analysis of the deposited data

Results flagged for a closer look

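Among the 5 transformed libraries, 12 values lay far from the other 4, with a gap to the nearest library of more than 0.71 of the whole range. Chance flags about 1 in 20 groups, and 73 named genes were examined besides windows and lists. Transformed 4 gave 8 of the 12. It was the lowest for Trap1 (150 CPM), Ubn1 (117 CPM), Slx4 (49.4 CPM) and Cluap1 (7.48 CPM) in the first 10 Mb. It was the highest for Atp13a3 (1084 CPM), Snx29 (2.01 CPM), Rtn4r (0.563 CPM) and Dirc2 (0.985 CPM) beyond it.

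Transformed 7 gave the other 4. It was the lowest for Rogdi (15.1 CPM), for the median difference in the window from 80 to 90 Mb (-0.39, over 13 genes, too few to be read singly) and for the median of the human chromosome 21 counterparts (-0.32). It was the highest for Ets2 (175 CPM).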

How the results depend on the processing

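The 12 medians of parental 1 and the transformed libraries, near and far side, kept their sign under all 12 alternatives tried on them (144 of 144 values). Of these, 23 moved by more than the spread between replicates, and the cause was not tested. That spread was the SD of the medians in a group, 0.28 on the near side and 0.02 on the far side for transformed libraries. For parental 1 it comes from parental 1 itself, so the count does not compare sides or groups. With the boundary at 12 Mb the near-side medians were 0.076 in parental 1 and 0.17, 0.058, 0.054 and 0.15 in transformed 5 to 8, all more than 1.5 times smaller than at 10 Mb, and -0.25 in transformed 4. Beyond 10 Mb, against parental 2 alone, transformed 4, 5, 6 and 8 were at -0.24, -0.26, -0.27 and -0.23. Against parental 3 alone, transformed 4, 6, 7 and 8 were at -0.30, -0.34, -0.38 and -0.31. Protein-coding genes only gave -0.30, -0.34, -0.37 and -0.30 for transformed 4, 6, 7 and 8, and leaving out processed pseudogenes, chosen after seeing the data, gave -0.30, -0.34, -0.37 and -0.30. Means in place of medians gave -0.40, -0.36 and -0.35 for transformed 5, 7 and 8. Transformed 7 was at -0.26 with RLE factors and -0.23 centred on genes outside chromosome 16, and transformed 8 at -0.31 with library size only.

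Counts of called genes depended on the setting. DESeq2 called 1 higher in the first 10 Mb and 49 lower and 6 higher beyond (5.72% of all genes lower and 4.54% higher). No filter on low counts gave 1 higher beyond (0.428% of all genes higher). Lane as a covariate gave 0 lower and 1 higher beyond (0.445% of all genes lower and 0.0846% higher). Lane 6 alone gave 12 higher in the first 10 Mb, 63 lower and 19 higher beyond (10.8% of all genes lower and 9.60% higher), and a median log2 fold change beyond 10 Mb of -0.14. Without transformed 4 and 7 together, 3 were lower and 20 higher in the first 10 Mb and 117 lower and 17 higher beyond (16.1% of all genes lower and 12.8% higher). Then 5, 24, 124 and 26 did not overlap between groups, in the same order (25% of all genes lower and 24.0% higher). Leaving out 1 library at a time, calls beyond 10 Mb ran from 0 to 66 lower and 0 to 11 higher, and in the first 10 Mb from 0 to 0 lower and 0 to 11 higher. In the same fits 0.116% to 9.26% of all genes were lower and 0.0166% to 6.25% higher. Genes not overlapping ran from 55 to 160 lower and 8 to 18 higher beyond, and from 1 to 3 lower and 1 to 14 higher before, where 11.8% to 19.95% of all genes were lower and 8.64% to 15.3% higher. The median log2 fold change ran from -0.24 to -0.11 beyond and 0.11 to 0.30 before. Of the 20 called genes, 20 kept the call in DESeq2 and without transformed 4, 18 without transformed 7, 1 without parental 1, and 0 without parental 2 or parental 3. The log2 fold change of Ubn1 turned to 8.6e-05 with lane as a covariate, and in the fits without 1 library it ran from -0.12 to 0.038, above 0 without parental 1 and without transformed 4. It was 0.014 without transformed 4 and 7 together. The log2 fold change of Eif4g1, in the fits without 1 library, ran from -0.11 to 0.12, below 0 without parental 1, transformed 5 or transformed 8. No paired analysis was possible because the groups share no replicate numbers.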
